A study of Mus musculus with 4 samples.

Results

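The posterior Hoxd cluster on mouse chromosome 2, with the gene-poor stretches on both of its sides, was examined for binding of Isl1, a LIM-homeodomain transcription factor. The 6 genes Evx2, Hoxd13, Hoxd12, Hoxd11, Hoxd10 and Hoxd9 define the locus and are called its members below. The Isl1 peaks counted are those whose midpoint lay in the cluster or within 1 Mb of either end of Hoxd13 (chromosome 2, 73668225 to 75671603 in mm10). This window held 26 of the 8860 peaks of replicate 1 and 32 of the 10162 peaks of replicate 2. They formed 23 shared regions, joined spans in which a peak of each replicate overlapped by at least 1 bp, of 6834 in the whole genome.

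The chromatin came from the genital tubercle, the embryonic anlage of the external genitalia, of wildtype CD1 mouse embryos at E14.5. Isl1 was precipitated with a rabbit monoclonal antibody in 2 ChIP-seq replicates (Isl1_ChIP), and 2 input libraries (Input_DNA) of the same tissue were not analysed here. Both ChIP replicates belong to a single condition, so no test between groups exists and none is given. The labels do not say how many embryos were pooled, whether male and female tubercles were mixed, or whether the replicates came from separate litters. The labelled tissue could not be set against marker genes, since the peak lists hold no expression values.

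Hox genes encode homeodomain transcription factors that pattern the body axis and its appendages, and those at the Hoxd13 end of the cluster act in the tips of the limbs and in the external genitalia. In limb and genital buds they are known to be controlled from a distance, by enhancers spread through the large gene-poor stretches on either side of the cluster. The stretch on the Evx2 side (towards the centromere) is known for enhancers used in digits and in the genital tubercle, and the one on the Hoxd1 side (towards the telomere) for enhancers used in the forearm and the caecum. The positions of the individual published enhancers were not used here.

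The sequences shown are the 250 bases before 3 transcription starts, from the RefSeq promoter table (GRCm38.p6, the assembly of mm10). Hoxd13 and Hoxd12 are shown because they flank the only peak found between members, and the noncoding RNA gene Gm13652 because it has the start closest to any shared region of the locus. Each reads 5′ to 3′ on the strand of its gene, and capitals mark TAAT on either strand, the core that homeodomains recognise.
Hoxd13 (chr2:74667975-74668224, plus strand): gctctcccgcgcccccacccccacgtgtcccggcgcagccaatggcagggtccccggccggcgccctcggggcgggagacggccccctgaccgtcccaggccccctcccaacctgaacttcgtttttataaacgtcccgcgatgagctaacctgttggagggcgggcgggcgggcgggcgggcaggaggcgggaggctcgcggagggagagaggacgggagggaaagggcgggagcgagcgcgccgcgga
Hoxd12 (chr2:74674763-74675012, plus strand): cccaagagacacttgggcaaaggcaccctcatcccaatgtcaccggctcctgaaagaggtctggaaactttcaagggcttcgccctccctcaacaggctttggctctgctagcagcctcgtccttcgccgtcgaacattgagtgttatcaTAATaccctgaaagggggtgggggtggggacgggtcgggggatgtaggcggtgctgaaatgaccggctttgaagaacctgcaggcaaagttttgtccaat
Gm13652 (chr2:75137976-75138225, minus strand): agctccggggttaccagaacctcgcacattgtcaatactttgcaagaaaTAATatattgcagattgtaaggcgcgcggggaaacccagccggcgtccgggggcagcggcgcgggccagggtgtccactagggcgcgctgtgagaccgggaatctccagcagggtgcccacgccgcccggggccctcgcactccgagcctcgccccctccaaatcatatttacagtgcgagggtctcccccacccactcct
The Hoxd13 stretch has no TAAT, and the Hoxd12 and Gm13652 stretches have 1 each. The sequences of the peaks themselves are not shown, since no genome was used here.

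The shared Isl1 regions lay in the flanks of the cluster. Of the 23 shared regions, 14 lay on the centromeric side, none between the outer ends of Evx2 and Hoxd9 (47.2 kb) and 9 on the telomeric side. Nor did any lie between Hoxd9 and Hoxd1, so the whole of Evx2 to Hoxd1 (112 kb) was free of shared regions. The gap between neighbouring shared regions that contains the cluster spanned 274 kb, the longest of the 22 gaps in the window, whose median was 28.0 kb. Of these gaps, 6 were over 100 kb. Whether the cluster held fewer regions than a stretch of its length would hold by position alone was not tested. In the outer parts of the window, from the edge to the far end of Atp5g3 (244 kb) and from the start of Gm50595 to the other edge (220 kb), there was no shared region either. The first shared regions beyond the window lay 1.05 Mb from Hoxd13 inside Chn1 (scores 522 and 517 in replicates 1 and 2) and 1.03 Mb away inside Nfe2l2 (scores 211 and 317). The score is the authors' own value for each peak. It has no stated formula. Percentiles rank it within a list. The lower score of a region, and counts of regions that scored higher in replicate 2, set raw scores of both lists side by side. Whether the lists share a scale is unknown, so these values are descriptive only.

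**Figure D1:**
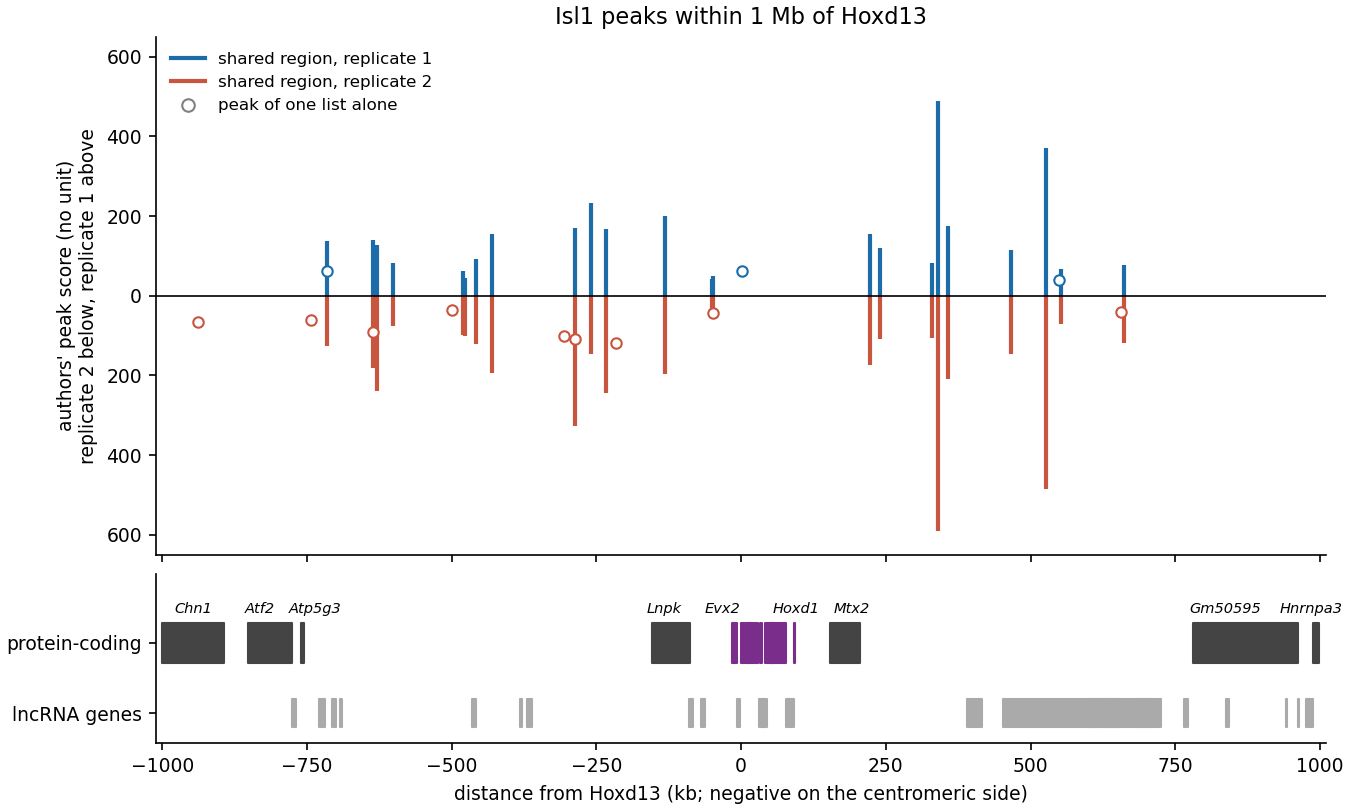
Peaks of the 2 Isl1 ChIP replicates by distance from Hoxd13 in kb (x axis) and by the authors' score (y axis, replicate 1 upwards and replicate 2 downwards). Bars stand for the 23 shared regions and open circles for the 12 peaks found in a single list, protein-coding genes are drawn as dark boxes (Hoxd genes and Evx2 in purple) and long noncoding RNA genes in grey. The cluster itself carries only an open circle of replicate 1, and the tallest bars, with scores of 488 and 591, stand 340 kb away on the telomeric side.

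No member had a peak of either replicate inside it. A shared region lay inside 8.32% of all 21887 protein-coding genes, so most genes had none either. For Evx2, an even-skipped type homeobox gene at the edge of the cluster (chromosome 2, 74652989 to 74661520), the closest shared region was 33.1 kb away, and the closest peaks were 11.1 kb away in replicate 1 and 32.7 kb away in replicate 2. For Hoxd13 (74668225 to 74671603), the gene most tied to digits and genitalia, the closest shared region was 48.3 kb away, with peaks 1.04 kb away in replicate 1 and 48.0 kb away in replicate 2. Hoxd12 (74675013 to 74677705) followed at 55.1 kb, Hoxd11 (74679558 to 74687016) at 59.6 kb, Hoxd10 (74684273 to 74695106) at 64.3 kb and Hoxd9 (74697763 to 74700208) at 77.8 kb. These distances rise along the cluster because all 6 genes share the same closest region, on the Evx2 side. On the Hoxd1 side the closest shared region was the same for all of them too, 233 kb from Evx2 and 194 kb from Hoxd9.

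The short distances in replicate 1 rest on a single peak between Hoxd13 and Hoxd12 (chromosome 2, 74672559 to 74672737, score 61). It lay 1.04 kb beyond the end of Hoxd13 and 2.37 kb from the start of Hoxd12. The closest replicate 2 peak was 48.0 kb from Hoxd13, and 31.5% of the replicate 1 peaks scored 61 or less. A site under the authors' threshold is not in a list, so absence from the replicate 2 list does not show that the site was unbound there.

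The promoter table held 7 windows (250 bases before to 50 after a start) for the 6 members, and none overlapped a peak of either replicate. Over all 32851 windows of the table, 2.74% overlapped a peak of both. TAAT occurred in 6 of the 7 windows, with 5 places at Evx2, 3 and 2 at the 2 starts of Hoxd11 and 1 each at Hoxd12, Hoxd10 and Hoxd9, and it occurred in 58.0% of all windows. The longer form CTAATG, which contains TAAT and is known as a site of LIM-homeodomain factors, was in none of the 7 and in 7.36% of all windows. TTTAT, a core known from posterior Hox proteins, had 3 places at Evx2, 2 at Hoxd13 and 2 at the first start of Hoxd11, and was in 40.0% of all windows. Of its extended forms, TTTATG (11.9% of all windows) occurred at Hoxd11 and TTTATTG (4.60%) at Evx2. All words were searched on both strands, and a match is a run of letters, not a binding site.

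The centromeric desert, the 602 kb between the protein-coding genes Atp5g3 (a subunit of mitochondrial ATP synthase) and Lnpk (an endoplasmic reticulum protein), held 11 shared regions. Replicate 1 had 12 peaks there and replicate 2 had 17. Its 3 highest replicate 1 scores belonged to the regions nearest to Lnpk, 233 to 287 kb from Hoxd13. The region at 74380968 to 74381227 (287 kb) scored 170 in replicate 1 and 328 in replicate 2. The next, at 74408763 to 74409169 (259 kb), scored 232 and 146, so the replicates ordered these neighbours differently. The region at 74435113 to 74435462 (233 kb) scored 168 and 243.

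Farther from the cluster, a pair lay 480 and 477 kb from Hoxd13, with 2.58 kb between their midpoints. The region at 74188092 to 74188298 scored 61 in replicate 1 and 98 in replicate 2. Its neighbour at 74190732 to 74190980 scored 45 and 100, so the pair ranked low in replicate 1 (31.5th and 13.9th percentile of that list) and near the middle in replicate 2 (51.2nd and 53.4th). Towards the cluster followed 74210357 to 74210656 (scores 93 and 122), which lay inside the noncoding RNA gene Gm31534, and 74238338 to 74238717 (scores 156 and 194).

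A second pair stood 636 and 628 kb from Hoxd13, 7.41 kb apart. The region at 74032126 to 74032485 scored 139 and 182. The other, at 74039621 to 74039866, scored 128 and 238. A weaker region at 74067523 to 74067680 (scores 81 and 75) and the outermost at 73952509 to 73952821 (scores 138 and 126, 716 kb from Hoxd13 and 40.2 kb from Atp5g3) completed the desert.

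Lnpk itself (64.6 kb) held 1 shared region, the only one of the locus inside a protein-coding gene. It lay at 74537027 to 74537344, 131 kb from Hoxd13, and its scores of 201 and 197 gave it the third highest lower score of the 23. The 73.5 kb between Lnpk and Evx2 held the 2 shared regions closest to the members. They stood 50.2 and 48.3 kb from Hoxd13, with 1.90 kb between their midpoints. The region at 74617847 to 74618169 scored 42 and 53, and the one at 74619796 to 74620022 scored 49 and 34. These were the lowest of the 23 by the lower of their scores, and they stood at the 11.5th and 17.6th percentile of the replicate 1 list and the 17.8th and 4.15th of the replicate 2 list. No other shared region lay within 100 kb of Hoxd13.

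The telomeric desert, here the 575 kb from Mtx2 (a mitochondrial import protein) to the predicted gene Gm50595, held 9 shared regions and 10 peaks in each replicate. It had the 2 strongest regions of the locus. The first, at 75011891 to 75012259, lay 340 kb from Hoxd13 and scored 488 in replicate 1 and 591 in replicate 2 (97.3rd percentile). The second, at 75198800 to 75199118, lay 527 kb away and scored 371 (92.2nd percentile) and 486 (95.8th percentile). No other region of the window had a replicate 1 score as high. In replicate 2 the next highest score was that of the centromeric region at 74380968 (328, 91.4th percentile).

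Around the first of these stood 2 neighbours. The region at 75029347 to 75029830, the widest of the locus at 484 bp, scored 175 and 210. The region at 75000465 to 75000623 scored 83 and 106 and lay 11.5 kb away from the strongest region. Nearest to the cluster on this side were 74894082 to 74894440 (223 kb from Hoxd13 and 17.6 kb past the end of Mtx2, scores 156 and 175) and 74912116 to 74912251 (scores 119 and 108).

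In the outer part of this desert lay 4 regions, the strong one at 75198800 among them, and all 4 were inside annotated noncoding RNA genes. The region at 75138248 to 75138668 (scores 114 and 146) was inside 2600014E21Rik, and its midpoint was 0.505 kb upstream of a start of Gm13652, whose upstream bases are given above. The regions at 75198800 and at 75224634 to 75224758 (scores 66 and 70) were inside 2600014E21Rik as well, and that at 75333629 to 75333956 (scores 76 and 118) was inside Gm39857. Beyond it, neither replicate had a peak in the remaining 338 kb of the window.

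Peaks found in a single list numbered 12, of which 3 were in replicate 1 and 9 in replicate 2. In replicate 1, 23 of 26 peaks of the window were shared (88.5%, Wilson 95% interval 71.0 to 96.0%), against 78.5% of the whole list. In replicate 2, 23 of 32 were shared (71.9%, 54.6 to 84.4%), against 68.3% of the whole list. Both whole-list shares lay inside the intervals of the window, which cover counting error alone. Unshared peaks of the window had a median score of 61.0 in replicate 1 and 67.0 in replicate 2, and shared ones 128 and 146. Of the 12, 4 lay less than 1 kb from the midpoint of a shared region, among them the replicate 2 peak at 74620192 to 74620298 (score 44), beside the region closest to the members. The unshared peak with the highest score was at 74451631 to 74451780 in replicate 2 (score 118), in the centromeric desert.

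Both replicates gave the regions of the locus a similar order. Across the 23 regions the scores had a Spearman correlation of 0.892, against 0.717 over all 6834 regions. These values describe regions that share their libraries, and no test was made of their difference. The median score of the regions was 128 in replicate 1 and 146 in replicate 2, against 107 and 127 for all shared regions. In replicate 1, 15 of the 23 (65.2%) scored above the median of the whole list, against 59.7% of all shared regions. In replicate 2, 19 (82.6%) did, against 65.8% of all. The score was higher in replicate 2 for 17 of the 23 regions (73.9%), and the same held for 58.9% of all regions. Peaks of the window had a median width of 220 bp in replicate 1 and 241 bp in replicate 2, against 172 and 185 bp in the whole lists. The midpoints of the overlapping peaks lay a median of 22.5 bp apart and at most 78 bp, against a median of 20.5 bp genome-wide.

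**Figure D2:**
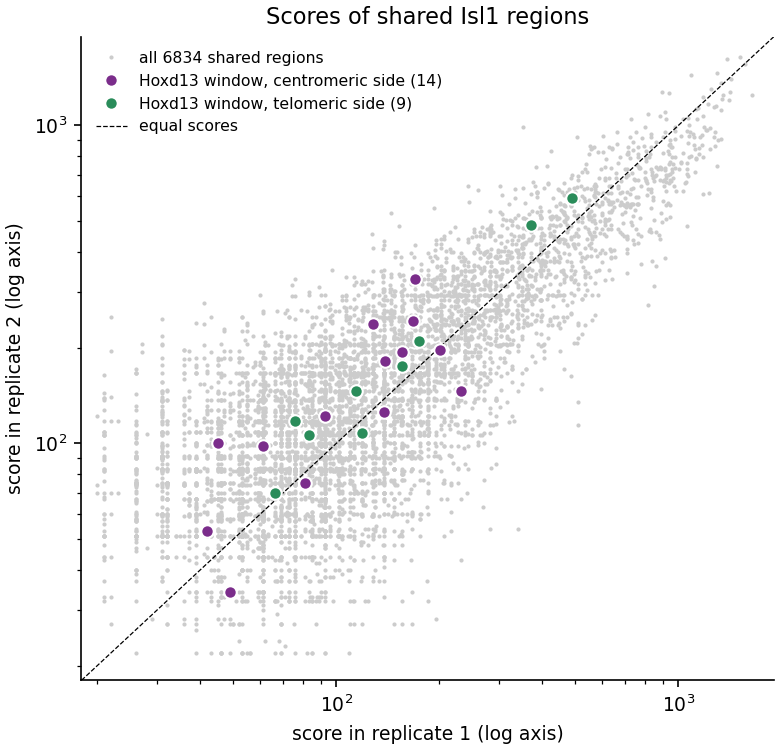
Score of each shared region in replicate 1 (x axis, log scale) and replicate 2 (y axis, log scale), for all 6834 shared regions (grey) and for the 14 centromeric (purple) and 9 telomeric (green) regions within 1 Mb of Hoxd13; the dashed line marks equal scores. The window's regions span scores from 42 to 488 in replicate 1 and from 34 to 591 in replicate 2, and 17 of the 23 lie above the line.

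The regions of the locus were mostly far from annotated starts. The region at 75138248 had its midpoint 0.505 kb from a start of Gm13652 and 0.826 kb from one of 2600014E21Rik. It was the 1 of 23 (4.35%) within 1 kb of a listed transcription start, against 13.9% of the 6507 shared regions on chromosomes with listed starts. The median distance to a start was 49.5 kb, against 38.3 kb over those regions. Another 1 of 23 (4.35%) was inside a protein-coding gene, Lnpk, against 42.8% of all shared regions. Inside long noncoding RNA genes lay 5 of 23 (21.7%), against 11.6% of all. This share rests on few genes. The regions at 75138248, 75198800 and 75224634 all lay in 2600014E21Rik (184753 bp), and that at 75333629 in Gm39857 (102085 bp). Another shared region stood within 10 kb for 6 of 23 (26.1%), against 21.5% of all. None of these differences was tested. The window was chosen together with its gene-poor flanks. The deserts of 602 kb and 575 kb, which hold no protein-coding gene, contained 11 and 9 of the 23 regions. A region there cannot lie inside a protein-coding gene, and no start of such a gene lies there. The low shares inside protein-coding genes and near starts therefore partly follow from the choice of window. They do not show where Isl1 prefers to bind.

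Both deserts were compared with the other long gene-free stretches, a comparison made with no test. The genome had 711 stretches of at least 500 kb between neighbouring protein-coding genes, with a median of 1.32 shared regions per Mb (quartiles 0 and 3.58, highest 25.4), and 261 of them had none. The centromeric desert had 18.3 per Mb and the telomeric one 15.6 per Mb. In the order of density 703 stretches lay below the former and 698 below the latter, so that 13 of the 711 (1.83%) had at least the density of the sparser of the 2, these 2 included. With Hnrnpa3, an RNA-binding protein gene, as its far boundary in place of Gm50595, the telomeric desert had 11.5 per Mb. Assembly gaps were not taken out of any stretch.

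Counted around genes, Hoxd13 stood near the top as well. Within 1 Mb of it lay 23 shared regions, where the 21887 protein-coding genes had a median of 5.00 (quartiles 2 and 7, highest 48). Of all genes, 116 (0.530%) had at least as many, and 13 of these 116 were genes of the same window, which count the same regions. The 116 fell into 19 loci more than 2 Mb apart. Within 500 kb of Hoxd13 lay 16 regions. Evx2, Hoxd12, Hoxd11 and Hoxd10 had the same counts as Hoxd13 at 10, 100 and 500 kb and 1 Mb, from the same regions. Among genes over 2 Mb from Hoxd13 and from each other, those whose counts at 0 to 10 kb, 10 to 100 kb, 100 to 500 kb and 500 kb to 1 Mb were most like those of Hoxd13 (0, 2, 14 and 7 regions) were Srfbp1 (0, 2, 14 and 6), Tmem30c (0, 2, 15 and 7), Spag1 (0, 2, 15 and 6), Aktip (0, 1, 12 and 7) and Gm46240 (0, 0, 13 and 7), by the summed difference of the 4 counts. All genes were compared over the same 2 replicates.

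**Figure D3:**
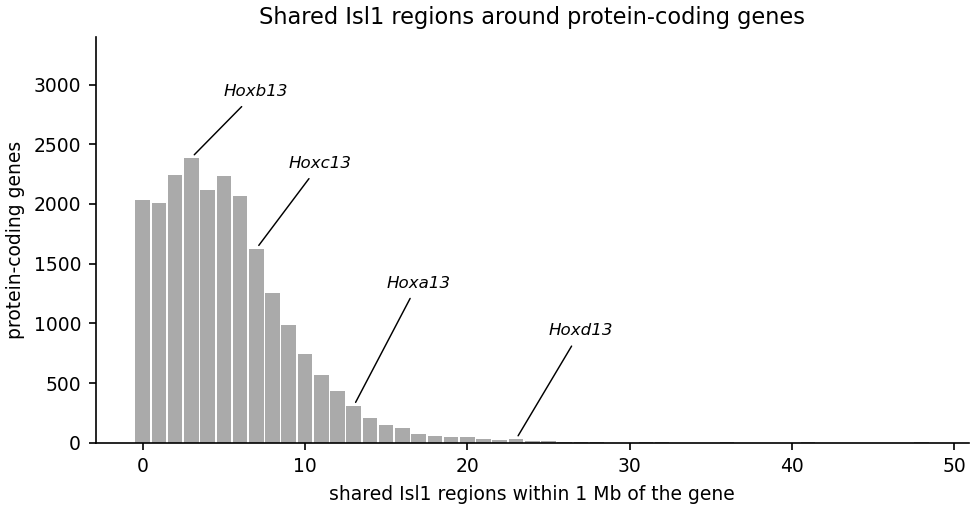
Number of protein-coding genes (y axis) by the number of shared Isl1 regions within 1 Mb of the gene (x axis), with the 4 group 13 Hox genes marked. Hoxd13 has 23, Hoxa13 13, Hoxc13 7 and Hoxb13 3, where the median of all genes is 5.00.

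The other Hox clusters, copies of an ancestral cluster on other chromosomes, differed in number and position of regions. Within 1 Mb of Hoxa13, the partner of Hoxd13 in the distal limb and the genital tubercle, lay 13 shared regions (18 peaks in replicate 1 and 23 in replicate 2). Within 1 Mb of Hoxc13 lay 7 (13 and 8 peaks) and of Hoxb13 3 (6 and 3 peaks). The windows of Hoxc13 and Hoxb13 hold more protein-coding genes, 54 and 47, than those of Hoxd13 (17) and Hoxa13 (21). The median of the lower of the 2 scores was 126 at Hoxd13, 73.0 at Hoxa13, 104 at Hoxc13 and 66.0 at Hoxb13. The Hoxb13 median rests on 3 regions. By the highest lower score the order differed, with 761 at Hoxb13, 488 at Hoxd13, 282 at Hoxa13 and 204 at Hoxc13.

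Close to the genes, shared regions were found at Hoxa and Hoxc genes. Of the 41 Hox and Evx genes, 3 (7.32%) had a shared region inside them, all of them Hoxa genes (Hoxa7, Hoxa10 and Hoxa11), against 8.32% of all protein-coding genes. Within 10 kb the count was 8 (19.5%, against 14.3% of all genes), with 6 of 11 Hoxa genes, 2 of 9 Hoxc genes and none of the 9 Hoxd or 10 Hoxb genes. Within 100 kb it was 29 (70.7%, against 38.1%), which included 7 of the 9 Hoxd genes, Evx2 and Evx1. Genes of a cluster count the same regions, so these shares rest on few regions: the 7 Hoxd genes and Evx2 all count the low-scoring pair between Lnpk and Evx2. With peaks at or above the median score of their list alone, Evx1 was the 1 gene of the 41 with a region within 100 kb, against 27.8% of all genes. That region, 157 kb from Hoxa13 with a lower score of 282, lay close to the 100 kb limit from Evx1.

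**Figure D4:**
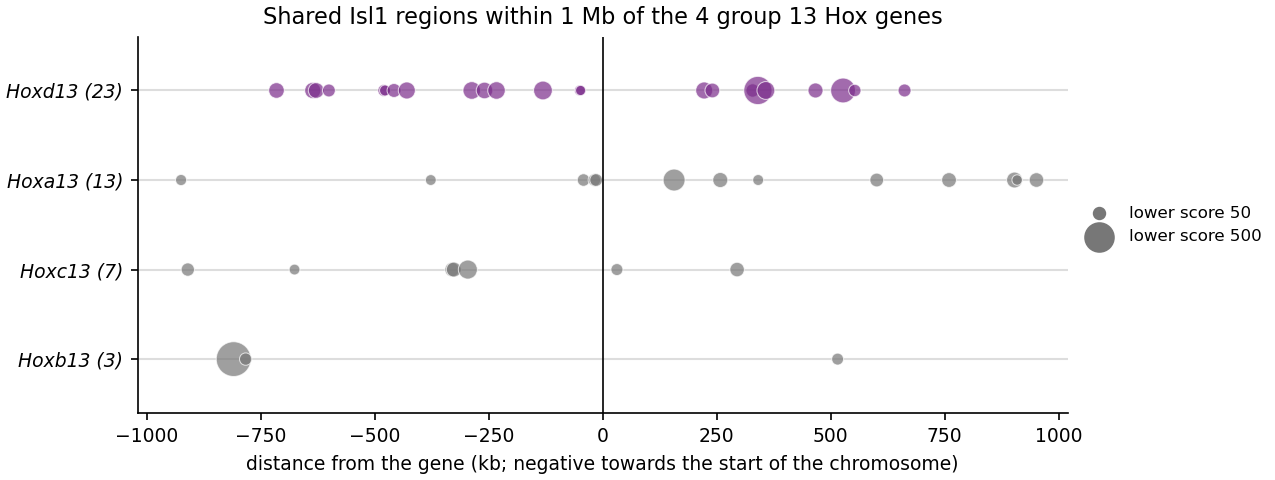
Shared Isl1 regions (circles, area rising with the lower of the 2 scores) by distance in kb (x axis) from Hoxd13, Hoxa13, Hoxc13 and Hoxb13, with the number of regions in brackets. The Hoxd13 row has 14 regions on the left and 9 on the right and none nearer than 48.3 kb, while the closest to Hoxa13 lies 14.3 kb away.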

How the data were processed

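Isl1 ChIP-seq peaks were analysed in 2 replicates, grouped and numbered by their titles; the 2 input libraries were not analysed here. Per the submitters' processing notes, Trimmomatic 0.35, Bowtie2 2.2.6, MACS2 2.1.0.20150731 and bedtools were used with build mm10; their order and settings, the peak threshold and any use of the input were not given in the sources used here. Each peak has a deposited score, a whole number of at least 20 in both lists, and lists are per replicate. Read depth is unknown, and a deeper library can pass more weak sites over a threshold.

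Positions are 1-based. Peaks overlapping by at least 1 bp formed a shared region, placed by the midpoint of the longest overlap. Distances run from that midpoint to the nearest end of a gene (RefSeq, GRCm38.p6, the assembly of mm10) or to a start derived from the RefSeq promoter table; starts on chromosome 18 were not used here. A score percentile is the percentage of peaks of that list with the same or a lower score. Code was Python 3.11.15 with numpy 2.4.6 and scipy 1.17.1, tested on simulated intervals. No p-values were computed. Members and lists were chosen with earlier results of these data known. Named genes were the 6 members, genes holding or nearest to a shared region, genes bounding gene-free stretches, Hox and Evx genes, and the 5 genes with counts most like those of Hoxd13 among genes over 2 Mb from it and from each other.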

Additional observations from a re-analysis of the deposited data

How the results depend on the processing

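Of 92 values under alternatives, 67 stayed within the limits set (1.5 times for counts and distances, 10% for correlations, score medians and percentages of genes, the Wilson interval for shares of peaks) and 25 moved. Limited to peaks at or above the median score of their list, the window held 15 replicate 1 peaks, 15 shared regions (9 on the centromeric side), a correlation of 0.699, a median lower score of 156, a replicate 1 shared percentage of 100 and 1 Hox or Evx gene with a region within 100 kb. The members' closest region then lay 116 kb (Evx2) to 161 kb (Hoxd9) away. Within 500 kb of Hoxd13, replicate 1 had 17 peaks and replicate 2 had 21. Single lists gave 22 (replicate 2) and 15 (replicate 1) peaks on the centromeric side, 0 and 1 in the cluster, and 32 and 26 in the window; the distance from Hoxd13 to the closest region ranged from 1.04 to 48.0 kb. In replicate 2 alone the centromeric desert had 28.2 peaks per Mb. With a limit of 10 kb, 8 Hox and Evx genes had a region. Hoxd13 exceeded 99.3% or more of genes in every setting run. The boundary at Hnrnpa3 and the alternatives for density in deserts were chosen after seeing the data. No paired analysis was possible because only Isl1 ChIP samples had values, and the input libraries with matching numbers were not analysed here. Read depth is unknown, so how far it limits weak sites could not be measured.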
